A study of Mus musculus with 4 samples.

Results

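The MHC class II genes were followed in the intestinal mucosa of A/J and C57BL/6J mice. They were taken as every probe set whose platform symbol, or a symbol listed beside it, begins with H2-A, H2-E, H2-DM or H2-O, together with the probe sets of Cd74 and Ciita. This gave 18 of the 22626 probe sets that are not controls, listed for 11 genes. Of these genes, 9 had their own probe set, H2-DMb1 only shared probe sets with H2-DMb2, and H2-Ob shared its probe set with the predicted gene Gm20506. There were 4 groups, A/J given the high-fat diet, A/J given the low-fat diet, C57BL/6J given the high-fat diet and C57BL/6J given the low-fat diet. All mice were males of 10 weeks that had eaten their diet for 2 weeks, in groups of 6. From each group, RNA of 2 mice near its average weight was combined and hybridised to 1 Affymetrix Mouse Expression Array 430A, so no group had a replicate array. Both are inbred strains, A/J known to resist and C57BL/6J known to develop obesity on dietary fat. No spread between mice can be read from these pools, and 4 arrays set a low precision throughout.

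Class II molecules display peptides from the endosomes to CD4+ T cells. Their alpha and beta chains are assembled on the invariant chain, encoded by Cd74, and the H2-DM heterodimer loads peptide in the endosome while H2-O restrains H2-DM. Transcription depends on Ciita, a co-activator that joins RFX, CREB and NF-Y proteins bound at the X and Y boxes of class II promoters. In the gut, dendritic cells, macrophages and B cells carry these genes, and the enterocytes of the small intestine do so as well. The mouse has the pairs H2-A and H2-E. C57BL/6J carries the b haplotype, whose Ea gene carries a deletion that takes in its promoter, so that no E molecule is made, whereas A/J carries k alleles of the class II genes and makes E. The A and E chains are also among the most polymorphic genes of the mouse, and probe sequences were not used here.

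Promoters of 7 of the 11 genes were found in the RefSeq table of build GRCm38.p6, with no sequence used for Cd74, Ciita, H2-Ab1 and H2-Ea. The 250 bases before the start of H2-Eb1, H2-DMb1 and H2-Aa are shown because these genes encode a chain of the pairs E, DM and A, and because the class II genes are known to share promoter elements. They are the C57BL/6J reference sequence at chr17:34305617-34305866 on the plus strand, chr17:34152941-34153190 on the plus strand and chr17:34287824-34288073 on the minus strand. Capitals mark matches to ACNGATG, taken here as a short form of the end of the X box, and to TGATTGG, the Y box, which holds the inverted CCAAT bound by NF-Y.
H2-Eb1: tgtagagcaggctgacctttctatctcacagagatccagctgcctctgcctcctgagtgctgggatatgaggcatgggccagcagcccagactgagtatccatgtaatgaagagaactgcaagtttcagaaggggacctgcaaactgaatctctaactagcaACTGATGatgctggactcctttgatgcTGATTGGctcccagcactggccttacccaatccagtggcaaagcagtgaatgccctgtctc
H2-DMb1: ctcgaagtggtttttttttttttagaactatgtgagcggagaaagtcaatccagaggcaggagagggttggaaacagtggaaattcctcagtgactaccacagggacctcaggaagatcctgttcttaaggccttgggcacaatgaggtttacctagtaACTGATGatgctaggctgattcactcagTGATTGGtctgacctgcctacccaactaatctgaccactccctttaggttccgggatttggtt
H2-Aa: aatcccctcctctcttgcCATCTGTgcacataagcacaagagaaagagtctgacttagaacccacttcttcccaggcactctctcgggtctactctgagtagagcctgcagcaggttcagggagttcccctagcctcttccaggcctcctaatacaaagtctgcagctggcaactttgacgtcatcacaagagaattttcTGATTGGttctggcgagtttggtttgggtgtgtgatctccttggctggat
H2-Eb1 has an X match at bases 163 to 169 and a Y match at bases 190 to 196 of its window, with 20 bases between them. H2-DMb1 has them at bases 160 to 166 and 188 to 194, with 21 bases between, a spacing of 21 that H2-DMb2 also has. H2-Aa has a Y match at bases 201 to 207, and its X match at bases 19 to 25 lies 175 bases away on the other strand. H2-Oa has both, 85 bases apart, H2-Ob has the Y match alone, and neither window of H2-DMa has a match. So 5 of the 8 class II windows hold the X pattern and 6 the Y pattern, searched on both strands, and no 2 matches overlap. Of all 32851 windows of that length, 8.31% hold the X pattern, 7.23% the Y pattern and 0.588% both. The short X pattern replaced a longer one searched first, so these shares depend on its length. A match is a description of the letters and not a measured site. A window without a match to the short X pattern may still hold an X box in other letters. The X matches of H2-Aa and H2-Oa, far from their Y matches, need not be X boxes.

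The deposited signals, computed with Microarray Suite 5.0, were scaled so that the trimmed mean of each array was 500, with a floor at 100 below which a scaled signal counted as 100 in ratios. A gene was represented by its brightest probe set, and 8 class II genes and 12 class II probe sets had a mean scaled signal of at least 100, the level called measured here, among 8036 genes and 13431 probe sets. The median deposited signal was 53.8 and 57.1 on the A/J high-fat and low-fat arrays and 43.9 and 48.6 on the C57BL/6J ones. The C57BL/6J low-fat array stood apart in 18S ribosomal RNA, whose 5' probe set had a scaled signal of 11010 there, 1675 on C57BL/6J high-fat and 84.4 and 218 on A/J high-fat and low-fat. Epithelial genes were bright throughout, with Epcam between 13750 and 16281 and Vil1 between 11616 and 12909, as the tissue label gives it. The 5 measured pancreatic enzyme genes summed to 1401 on A/J high-fat and to between 51579 and 77593 on the others, and 3 stomach genes to 8186 on C57BL/6J high-fat and to between 1137 and 2586 on the others. Their part in the class II values was not tested.

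The signals of each probe set come first. Cd74, the invariant chain, had scaled signals of 8205 and 7069 on A/J high-fat and low-fat and of 5306 and 6707 on C57BL/6J high-fat and low-fat. Both A/J values lie above both C57BL/6J values. In a bulk sample, fewer cells of a type and less RNA per cell cannot be told apart. H2-Eb1, the beta chain of E, had 3125 and 2941 on A/J high-fat and low-fat and 2481 and 3469 on C57BL/6J high-fat and low-fat, so that the strains overlap and the C57BL/6J low-fat array is highest. H2-Aa, the alpha chain of A, had 5928, 5373, 4939 and 6109 in that order of arrays in its brightest probe set, 1435290_x_at, where the strains overlap too. The other H2-Aa probe set, 1452431_s_at, had 4297 and 2817 on A/J high-fat and low-fat and 962 and 1425 on C57BL/6J high-fat and low-fat, with no overlap between strains. H2-Ab1, the beta chain of A, had 1484 and 1331 on A/J high-fat and low-fat and 1624 and 2536 on C57BL/6J high-fat and low-fat in its brightest probe set, 1450648_s_at. Its probe set 1451721_a_at had 1065, 920, 1569 and 2392, and 1425477_x_at had 557, 542, 791 and 797, in the same order of arrays. In all 3 H2-Ab1 probe sets both A/J values lie below both C57BL/6J values, except that with no scaling 1450648_s_at was higher in A/J between the high-fat arrays, at a log2 ratio of 0.15. Over the 12 measured class II probe sets the strains did not overlap in 7, against 49.6% of all measured probe sets, and by gene in 3 of 8, against 49.1% of all genes, so separation of this kind was common on these arrays. An ending in s marks a probe set that can bind transcripts of several genes, x one with probes that may bind other sequences, and a one that binds several transcripts of a gene.

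H2-DMa, the alpha chain of the peptide loader, had 591 and 526 on A/J high-fat and low-fat and 420 and 516 on C57BL/6J high-fat and low-fat. H2-DMb2, a beta chain of it, had 199, 229, 132 and 213, with the lowest value on C57BL/6J high-fat. The probe set 1449580_s_at, listed for H2-DMb1 and H2-DMb2 together, had 939 and 803 on the A/J arrays and 456 and 663 on the C57BL/6J ones, again high-fat before low-fat, and both A/J values are higher. H2-Oa, the alpha chain of the DM inhibitor, stayed near the floor at 92.2 and 126 in A/J and 113 and 145 in C57BL/6J. Ciita, the co-activator, had 119 and 126 in A/J and 126 and 120 in C57BL/6J in its measured probe set, 1421211_a_at, and 67.4 to 112 over all arrays in the other. H2-Oa and Ciita were so close to the floor that a lower signal on any array could hardly have shown in a ratio. The probe set of H2-Ob and Gm20506 lay between 3.36 and 69.9, under the floor on every array. Another probe set shared by H2-DMb1 and H2-DMb2, 1418638_at, was above the floor only on A/J high-fat, at 135.

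**Figure D1:**
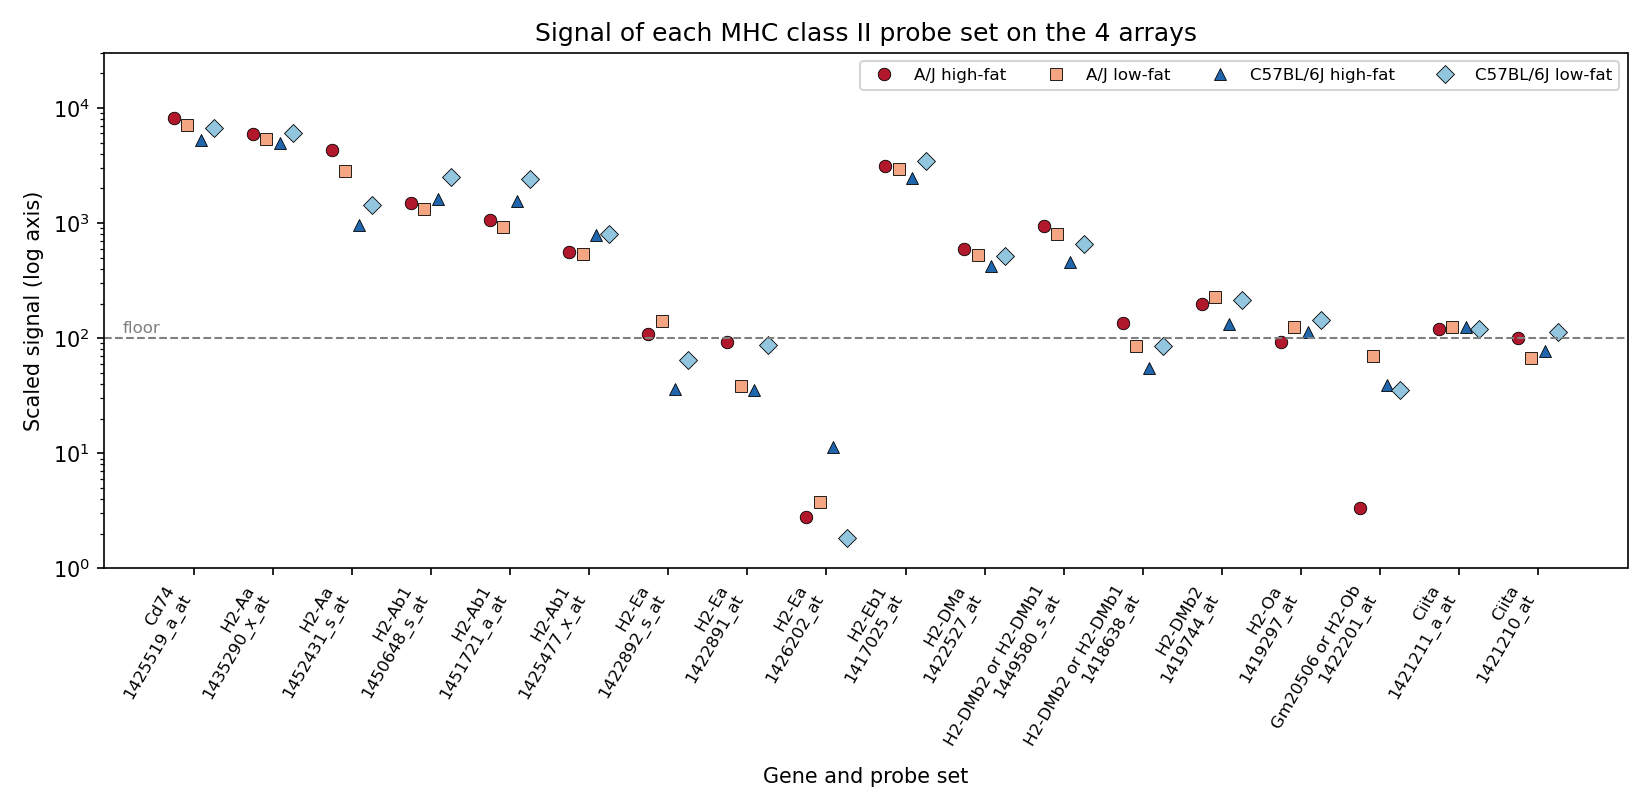
Scaled signal (log axis) of each of the 18 class II probe sets on the 4 arrays, 1 point per array, with the floor of 100 as a dashed line. The A/J points lie above the C57BL/6J points in H2-Aa 1452431_s_at and below them in the 3 H2-Ab1 probe sets (for 1450648_s_at on high-fat above them with no scaling), and the H2-Ea probe sets lie near or under the floor in both strains.

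H2-Ea, the alpha chain that C57BL/6J is known to lack, gave little signal in either strain. A/J makes E, yet its H2-Ea signals stayed near or under the floor, beside 3125 and 2941 for H2-Eb1 on A/J high-fat and low-fat. The reason was not tested, so the low signal cannot be read as absence of the transcript in A/J. Its probe set 1422892_s_at had scaled signals of 108 and 141 on A/J high-fat and low-fat, against 36.2 and 64.6 on C57BL/6J high-fat and low-fat. Only the A/J arrays were above the floor, and the A/J signal was at least 1.08-fold higher between the high-fat arrays and at least 1.41-fold higher between the low-fat arrays. With a floor of 50 these became at least 2.16-fold and a measured 2.18-fold. The probe set 1422891_at had 93.3 and 38.6 in A/J and 35.8 and 86.4 in C57BL/6J, all under the floor and with the strains overlapping. The third, 1426202_at, lay between 1.85 and 11.3. The mean signal of H2-Ea was under the level for testing, so it has no test, and the strains were apart in only 1 of its 3 probe sets. H2-Eb1, the partner chain, which the b haplotype still transcribes, differed between the strains by 0.05 on the log2 scale, with a 95% interval of -0.41 to 0.51 by limma (adjusted p = 0.926).

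The comparison of the strains asked whether the class II genes differ between A/J and C57BL/6J mucosa. By limma, with a strain term beside a diet term over all 4 arrays, 0 of the 8 measured class II genes passed a Benjamini-Hochberg adjusted p of 0.05, against 7.52% of all 8036 genes. At an unadjusted p under 0.05 there was 1 of 8, against 21.5% of all genes. It was H2-Ab1, which was lower in A/J by a log2 difference of -0.53 (SE 0.23, limma adjusted p = 0.195, n = 2 arrays per strain). The median log2 difference of the 8 was 0.04, as was that of all genes. Cd74 differed by 0.35, with an interval of -0.11 to 0.81, H2-DMa by 0.26 with one of -0.19 to 0.71, and H2-DMb2 by 0.34 with one of -0.11 to 0.79. H2-Aa, by its brightest probe set, differed by 0.04, with an interval of -0.41 to 0.48. H2-Oa differed by -0.19 and Ciita by -0.01, with intervals of -0.61 to 0.24 and -0.43 to 0.42. With 1 array left out and strain alone in the fit, H2-Ab1 ranged from -0.85 without C57BL/6J high-fat to -0.21 without C57BL/6J low-fat. Over the same 2 omissions H2-DMb2 ranged from 0.00 to 0.69, Cd74 from 0.18 to 0.52, H2-DMa from 0.11 to 0.41 and H2-Eb1 from -0.19 to 0.29. The error of this fit comes from the strain-by-diet difference among 4 pools, and no spread between pools of a group enters it. With 1 residual degree of freedom, limma draws the error of each gene toward that of all genes. H2-Oa and H2-Ab1 thus had an SE of 0.19 and 0.23, although their diet ratios differed between the strains by 0.04 and 0.80. The intervals rest largely on this shared error.

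Fitted across all 13431 measured probe sets, limma called 1 of the 12 class II probe sets between the strains, against 4.86% of all, so that a single call among so few is close to the share of all probe sets. This was H2-Aa 1452431_s_at, which rose by 1.57 in A/J (SE 0.28, 95% interval 0.93 to 2.21, limma adjusted p = 0.018, n = 2 arrays per strain). With any 1 array left out and strain alone in the fit it differed by 1.27 to 1.88 with an adjusted p of 0.378 to 0.479, in fits that called 0 of all probe sets. Between the high-fat arrays the A/J signal was 4.47-fold higher, and between the low-fat arrays it was 1.98-fold higher. The brighter H2-Aa probe set differed by only 0.04 (limma adjusted p = 0.938), with ratios that pointed opposite ways on the diets, at 0.26 on high-fat and -0.19 on low-fat in log2. The call for H2-Aa thus held for 1 of its 2 probe sets. The 3 H2-Ab1 probe sets pointed the other way, with log2 differences of -0.53, -0.97 and -0.53 for 1450648_s_at, 1451721_a_at and 1425477_x_at (limma adjusted p = 0.254, 0.0603 and 0.168). The shared DMb probe set 1449580_s_at differed by 0.66 (SE 0.23, limma adjusted p = 0.16). At an unadjusted p under 0.05 there were 4 of the 12, against 20.4% of all probe sets. Whether sequence differences between the haplotypes under the probes enter these values was not tested.

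Between single arrays there is no test, and members were counted at a ratio of at least 2-fold. On the high-fat diet 0 of the 8 genes differed that far between A/J and C57BL/6J, against 4.31% of all genes, and 2 of the 12 probe sets did, H2-Aa 1452431_s_at and the shared DMb probe set at 2.06-fold higher in A/J, against 4.53% of all probe sets. On the low-fat diet it was 0 of 8 genes, against 5.64%, and 1 of 12 probe sets, H2-Ab1 1451721_a_at at 2.60-fold lower in A/J, against 5.94%. The median log2 ratio of the 8 genes was 0.30 on high-fat and -0.08 on low-fat, beside 0.04 and 0.02 for all genes. With no scaling these medians became 0.58 and 0.10 for the 8 genes and 0.32 and 0.20 for all genes. Between the high-fat arrays Cd74 was 1.55-fold and H2-DMb2 1.5-fold higher in A/J. On low-fat the brightest H2-Ab1 probe set was 1.91-fold lower in A/J and Cd74 only 1.05-fold higher. The low-fat ratios, but not the high-fat ones, use the C57BL/6J low-fat array and its 18S value of 11010. The high-fat arrays differed in 18S too, at 84.4 in A/J and 1675 in C57BL/6J by the same 5' probe set. By the 3' probe set they had 182 and 398. The high-fat arrays also differed in tissue genes, with pancreatic sums of 1401 in A/J and 77593 in C57BL/6J. Their stomach sums were 1137 and 8186. On low-fat the sums were 51914 and 51579 for pancreas and 2586 and 1322 for stomach, in the same order of strains. The part of 18S and of these tissues in the ratios was not tested.

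**Figure D2:**
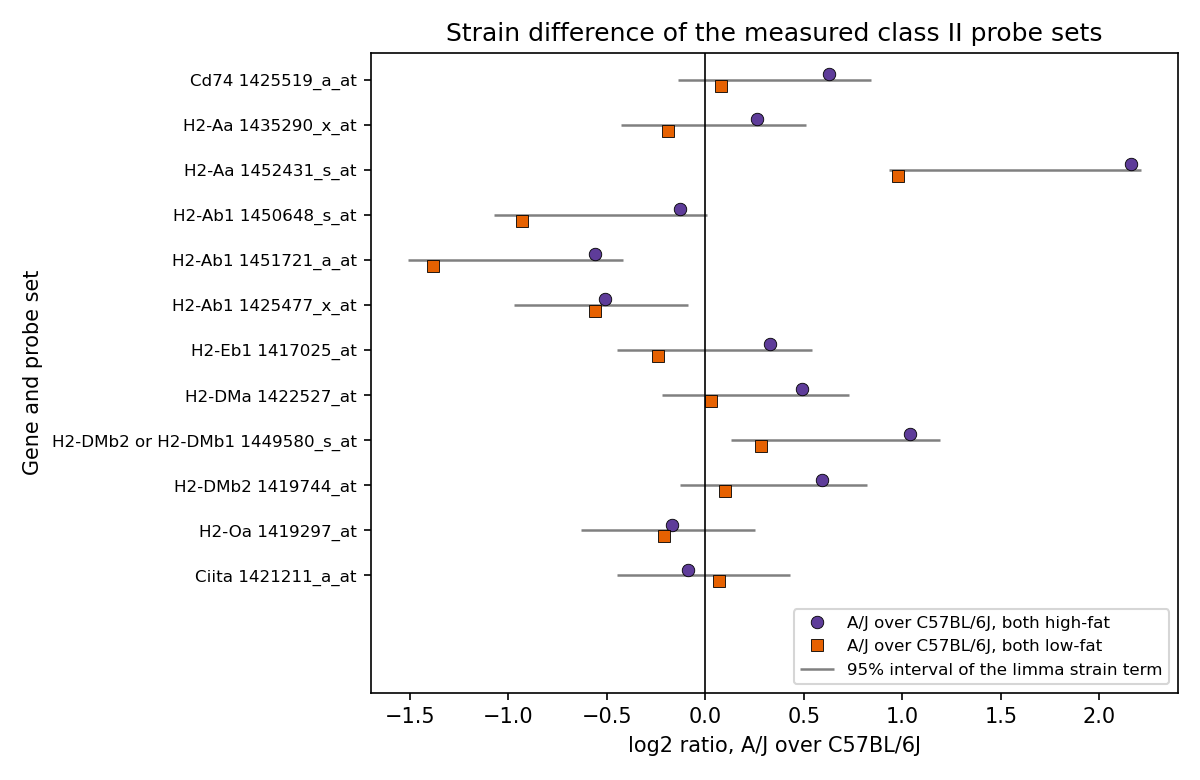
The log2 ratio of A/J over C57BL/6J for each of the 12 measured class II probe sets, between the high-fat arrays (circles) and between the low-fat arrays (squares), with the 95% interval of the strain term in the limma fit across probe sets as a line. H2-Aa 1452431_s_at lies at 2.16 and 0.98, the 3 H2-Ab1 probe sets lie below 0 on both diets with these scaled signals (1450648_s_at lies at 0.15 on high-fat with no scaling), and H2-Eb1 lies on either side of 0.

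The comparison of the diets asked whether 2 weeks of high-fat feeding changed the class II genes. By limma 0 of the 8 genes were called, against 0.61% of all genes, and 0 had an unadjusted p under 0.05, against 9.35% of all genes. Per probe set it was 0 of 12, against 0.171%, and 0 at the unadjusted threshold, against 8.21%. The median log2 difference of the 8 genes was -0.14, beside 0.00 for all genes. H2-DMb2 came nearest, at -0.44 (95% interval -0.89 to 0.01, limma adjusted p = 0.547), with both high-fat values below both low-fat ones. With diet alone in the fit it was -0.15 without C57BL/6J high-fat and -0.74 without A/J high-fat. The diets did not overlap in 2 of the 8 genes, H2-DMb2 and H2-Oa, against 28.3% of all genes. Cd74 differed by -0.06, with an interval of -0.52 to 0.40, H2-Eb1 by -0.20 with one of -0.66 to 0.26, and H2-Ab1 by -0.24 with one of -0.74 to 0.25. H2-Aa differed by -0.08, H2-DMa by -0.06, H2-Oa by -0.35 and Ciita by 0.00.

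Within the strains, the A/J and C57BL/6J arrays gave different pictures, which cannot be tested with 1 array per group. In A/J 5 of the 8 genes had a higher signal on high-fat than on low-fat and 3 a lower one. The median log2 ratio of the 8 was 0.11, beside 0.01 for all genes, of which 50.9% were higher. In C57BL/6J 1, Ciita, was higher on high-fat and 7 were lower, with a median of -0.35, beside -0.01 for all genes, of which 50.9% were lower. With no scaling Ciita was lower in C57BL/6J too, where the median of all genes was -0.15, and with quantile normalization it was higher in A/J. H2-Ab1 was 1.11-fold higher on high-fat in A/J and 1.56-fold lower in C57BL/6J. H2-Eb1 was 1.06-fold higher on high-fat in A/J and 1.4-fold lower in C57BL/6J, and Cd74 was 1.16-fold higher and 1.26-fold lower in that order of strains. H2-Aa and H2-DMa followed, at 1.1-fold and 1.12-fold higher on high-fat in A/J and 1.24-fold and 1.23-fold lower in C57BL/6J. H2-DMb2 was lower on high-fat in each strain, by 1.15-fold in A/J and 1.61-fold in C57BL/6J. At the 2-fold threshold there were none, with 0 of the 8 genes in A/J, against 1.84% of all genes, and 0 in C57BL/6J, against 1.69%. Per probe set it was 0 of 12 in A/J, against 1.86%, and 0 of 12 in C57BL/6J, against 1.68%.

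Of the 7 class II genes above the floor on all 4 arrays, 5 were higher on high-fat in A/J and lower in C57BL/6J, as were 24.6% of all 7227 such genes. These 5 were Cd74, H2-Aa, H2-Ab1, H2-DMa and H2-Eb1. The difference of the diet ratios, A/J minus C57BL/6J in log2, had a median of 0.48 over the 8 class II genes and 0.02 over all genes. The upper decile over all genes was 0.55, and H2-Ab1, at 0.80, and H2-Eb1, at 0.57, lay above it. The C57BL/6J ratio rests on the low-fat array with the high 18S signal, and with 1 array per group it cannot be taken without that array. The A/J ratio rests on arrays with pancreatic sums of 1401 on high-fat and 51914 on low-fat and stomach sums of 1137 and 2586. In C57BL/6J these sums were 77593 and 51579 for pancreas and 8186 and 1322 for stomach. T cell markers had a summed scaled signal of 4291 and 3121 on A/J high-fat and low-fat and of 7152 and 12839 on C57BL/6J high-fat and low-fat. Their diet ratios had a median of 0.39 in A/J and of -0.76 in C57BL/6J, where 8 of 8 were lower on high-fat. B cell markers had medians of 0.11 in A/J and -0.24 in C57BL/6J, where 5 of 5 were lower, and the neighbours in the class II region -0.04 and -0.36, with 5 of 5 lower in C57BL/6J. Dendritic cell and macrophage markers had medians of 0.20 in A/J and 0.09 in C57BL/6J, where 6 were higher and 1 lower on high-fat. The part of the 18S signal, of pancreas and stomach and of these cells in the class II ratios was not tested.

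**Figure D3:**
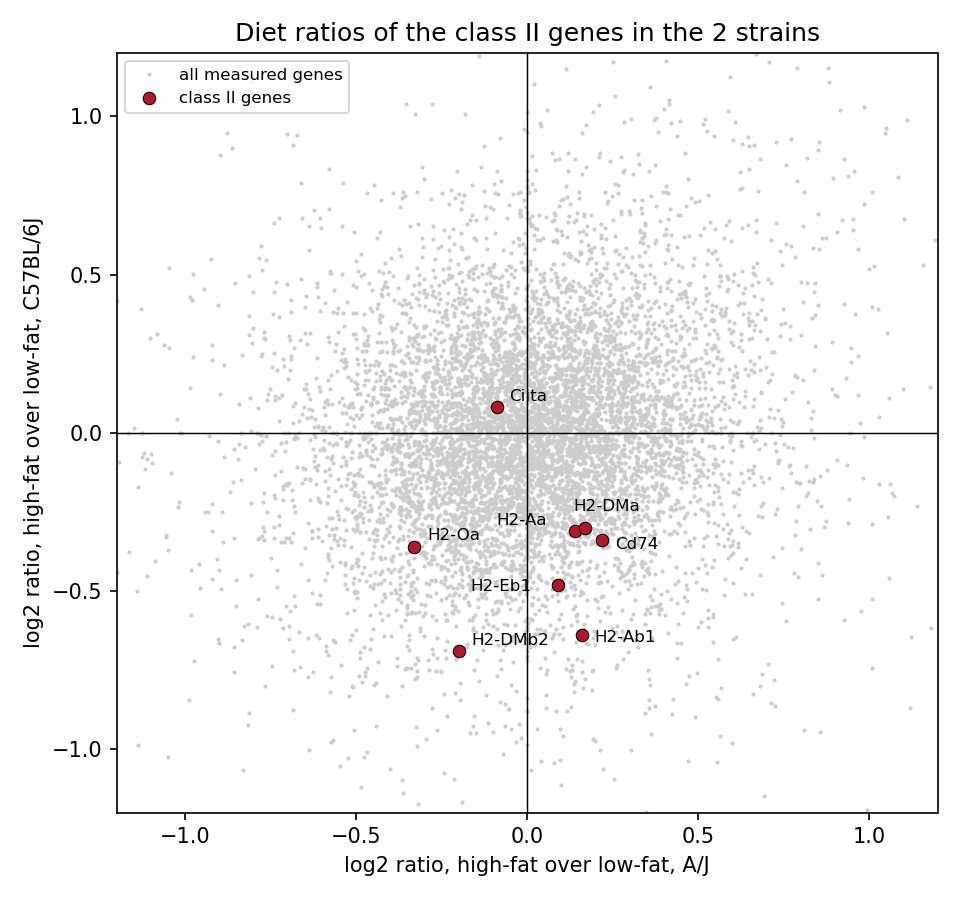
The log2 ratio of high-fat over low-fat in A/J (x axis) and in C57BL/6J (y axis) for the 8 measured class II genes (red, labelled) and for all 8036 measured genes (grey), of which 131 lie outside the axes at 1.2. Of the class II genes, 5 lie at the lower right, higher on high-fat in A/J and lower in C57BL/6J.

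Genes that act with the class II molecules were read from lists, by limma over all genes tested, of which 7.52% were called between the strains. Without any 1 array the strain fit called 0 of all genes, so no call in these lists was made there. For the transcription factors of the class II promoters, 1 of 7 measured genes was called between the strains, 1 higher and 0 lower in A/J, with a median of 0.19. Nfyb, a subunit of NF-Y, which binds the Y box marked above, rose by 0.89 in A/J (SE 0.20, limma adjusted p = 0.0183), with scaled signals of 272 and 347 on A/J high-fat and low-fat and 128 and 214 on C57BL/6J high-fat and low-fat. Rfx5, the DNA-binding subunit of RFX, differed by 0.49 (limma adjusted p = 0.169), Creb1 by 0.23 and Rfxank by 0.19. The other subunits of NF-Y were nearly level, with Nfya at 0.05 and Nfyc at -0.13. With 7 genes, 1 call is not clearly above the share of all genes. Of interferon-gamma signalling, whose signal induces Ciita, 0 of 6 measured genes were called in either direction, with a median of -0.12. Irf1 differed by -0.54 (limma adjusted p = 0.127), Ifngr1, a receptor chain, by -0.46, Jak1 by 0.17 and Ifngr2 by -0.13, and Ifng itself was not measured.

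Lysosomal antigen processing had 0 of 8 genes called in either direction between the strains and a median of -0.16. Lgmn, an endopeptidase that cuts antigens, differed by -0.41, Ctsz by -0.37, Ctss, the cathepsin that trims the invariant chain, by -0.27 (limma adjusted p = 0.481), and Ctsb by -0.19. Turnover and costimulation had 0 of 4 measured genes called and a median of -0.02. Cd83, which stabilises class II on the cell surface, differed by 0.62 (limma adjusted p = 0.0911), Cd40 by -0.24, Icosl by -0.03 and Cd4 by -0.01, and Cd80, Cd86 and Lag3 were not measured. Among neighbours in the class II region, 2 of 5 were called, 1 each way, against 7.52% of all genes, with a median of 0.11. Tap1, a subunit of the peptide transporter for class I, fell by 1.23 in A/J (limma adjusted p = 0.00301), with 657 and 674 in A/J and 1299 and 1871 in C57BL/6J on high-fat and low-fat. Tap2, its partner subunit, rose by 0.77 in A/J (limma adjusted p = 0.0402), with 1607 and 1511 in A/J and 806 and 1035 in C57BL/6J. Brd2 differed by 0.21 and Psmb9 by 0.11. For the diet term these 5 lists had 0 calls in either direction, against 0.61% of all genes.

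Markers of dendritic cells, macrophages and B cells, which carry class II molecules, were read the same way, as were those of T cells and intraepithelial lymphocytes. The strain counts below stand beside 7.52% of all genes called. Dendritic cell and macrophage markers had 0 of 8 measured genes called between the strains, with a median of 0.17 and a summed scaled signal of 7921 and 7121 on A/J high-fat and low-fat and 6917 and 6569 on C57BL/6J high-fat and low-fat. Itgax differed by 0.49, Xcr1, under the floor on both C57BL/6J arrays, by 0.35, Csf1r by 0.30 and Cd68 by 0.19. Of the other measured markers, Cx3cr1 differed by 0.15, and Lyz2, Adgre1 and Mrc1 by -0.07, -0.04 and -0.03. Itgam, Flt3, Ccr7 and Zbtb46 were not measured. B cell markers had 2 of 5 measured genes called, 2 higher and 0 lower in A/J, with a median of 0.76 and sums of 2222 and 2372 in A/J and 1818 and 2232 in C57BL/6J. Cd79a, a chain of the B cell receptor, rose by 0.84 in A/J (limma adjusted p = 0.0254) and Cd22 by 0.76 (limma adjusted p = 0.0379). Ms4a1 differed by 1.0 (limma adjusted p = 0.0582) and Blnk by -0.44, and Pax5 and Cr2 were not measured. The B cell median was 0.94 between the high-fat arrays, with 4 higher and 1 lower, and 0.25 between the low-fat arrays, with 3 higher and 2 lower. T cell and intraepithelial lymphocyte markers had 3 of 8 called, all lower in A/J, with a median of -0.53. The list's median was 0.09 between the high-fat arrays, with 5 higher and 3 lower, and -1.18 between the low-fat arrays, with 1 higher and 7 lower, and the low-fat ratio uses the array with the high 18S signal. Gzma fell by 2.28 in A/J (limma adjusted p = 6.08e-05), Ccl5 fell by 1.43 and Gzmb fell by 1.34 (limma adjusted p = 0.0354 and 0.0173), and Cd3d differed by -0.61. The log2 ratios of A/J over C57BL/6J were -0.34 on high-fat and -2.53 on low-fat for Ccl5, -0.55 and -2.13 for Gzmb and -1.89 and -2.68 for Gzma. Itgae differed by 0.59 and Cd3e by 0.25 the other way, and neither was called. For the diet term 0 genes of these 3 lists were called, against 0.61% of all genes. Intestinal epithelium markers had 0 of 8 genes called between the strains, with a median of -0.18, and 0 called for diet. The part of these cells in the class II values was not tested.

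**Figure D4:**
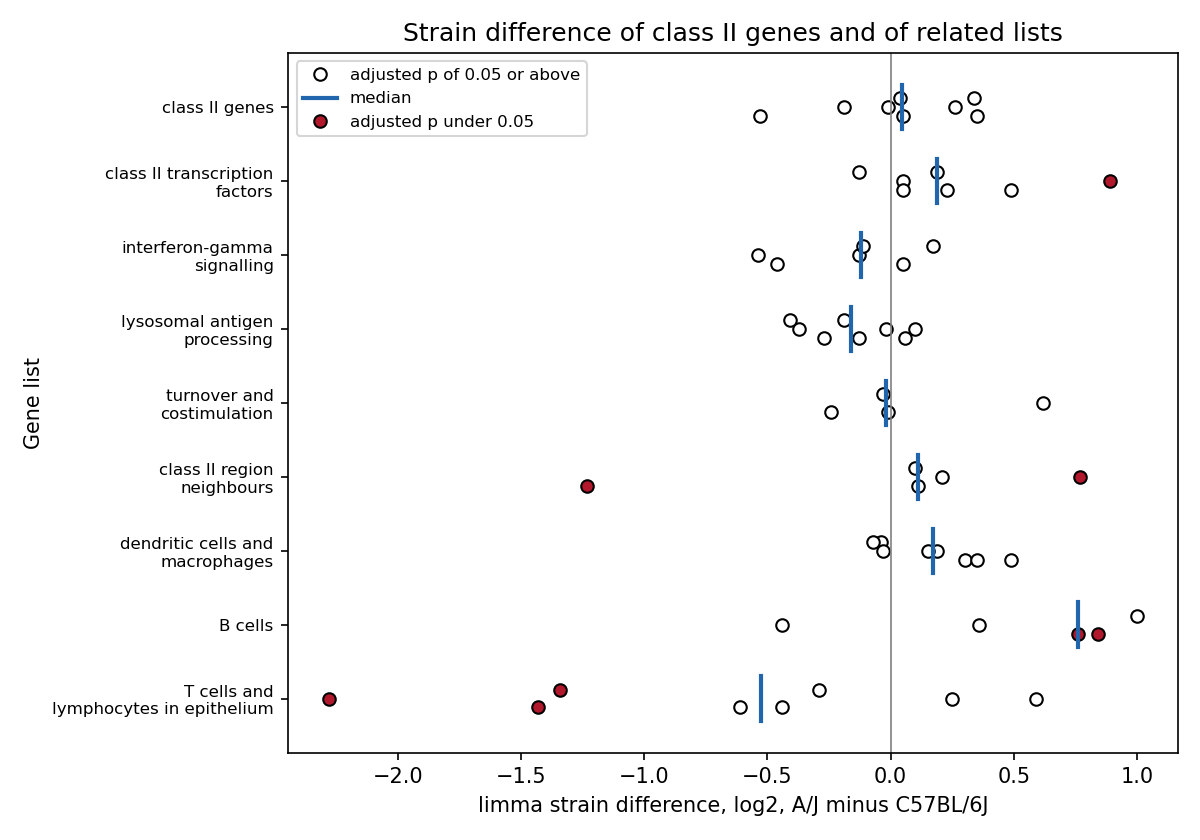
The limma strain difference (log2, A/J minus C57BL/6J) of each measured gene of the class II genes and of 8 related lists, with filled points for an adjusted p under 0.05 and a bar for the median of each list. No class II gene is filled, and Tap1 at -1.23 and Tap2 at 0.77 lie on opposite sides of 0. The B cell median of 0.76 stands opposite the T cell median of -0.53. Between the high-fat arrays alone these medians were 0.94 and 0.09, and between the low-fat arrays 0.25 and -1.18.

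The patterns over the 4 arrays were also set beside that of Cd74, which lies outside the polymorphic histocompatibility region. Each gene's log2 signals were centred on their mean, and the Euclidean distance to those of Cd74 was taken. Of 8035 other genes, H2-DMa was rank 23, at a distance of 0.102, H2-Aa rank 831 and H2-Eb1 rank 984. H2-DMb2 followed at rank 1496, Ciita at 3194 and H2-Oa at 5212. H2-Ab1 was the farthest of the family, at rank 6938 and a distance of 0.909. The nearest genes outside the family were Polr3c, a subunit of RNA polymerase III, at 0.0311, Phgdh, an enzyme of serine synthesis, at 0.0313, Exoc6 at 0.0377 and Tmem80 at 0.0449. Serpinb9, an inhibitor of granzyme B, followed at 0.0449, then Plod3 at 0.0527, Sec23ip at 0.056 and the collagen chain Col6a3 at 0.0689. Cd74 spanned only 0.63 on the log2 scale over the 4 arrays, against a median span of 0.50 for all genes, and 4 arrays are too few for a correlation.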

How the data were processed

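Total RNA pools of intestinal mucosa were hybridised to 4 arrays, 1 per group. Per the labels' protocols, the authors used Microarray Suite 5.0 with default settings to turn the perfect match and mismatch brightness into 1 intensity per probe set. The deposited signals are linear, and whether they were brought to a shared target is not stated there. Here they were multiplied by 2.80 and 2.72 for A/J high-fat and low-fat and by 3.41 and 3.08 for C57BL/6J high-fat and low-fat, which gave every array a mean of 500 after 2% of probe sets were trimmed at either end. Of the probe sets, 64 controls were left out, 20380 had 1 gene, 691 several and 1555 none in the platform annotation, and 20351 matched RefSeq by gene number. Depth is not defined for arrays, and between 58.6% and 60.3% of probe sets had a scaled signal of at least 100.

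Strain and diet were fitted as additive terms with limma 3.58.1 in R 4.3.3, with 1 residual degree of freedom and Benjamini-Hochberg adjustment over all genes. A run on simulated data with independent noise checked that large added differences were recovered at about their size. It set no limit on false calls and says nothing about differences as small as those of the class II genes. Where 1 array lay below the floor the ratio is a lower bound, and fitted values such as that of H2-Oa then rest on the floor. Python 3.11.15 with numpy 2.4.6, pandas 2.3.3 and matplotlib 3.10.9 did the rest. The members and lists were chosen with earlier results of these data known. Every member is named, with up to 4 members of each related list by the size of the strain difference, any called, and the 8 genes nearest to Cd74. Nfya, Nfyc, Itgae, Cd3e, Cx3cr1, Lyz2, Adgre1 and Mrc1 were named after their values were seen. Marchf1, Marchf8 and Btnl2 of the lists were not analysed here. The alternatives were other scalings, floors, a pseudocount of 50, other treatments of probe sets, no filter, an intensity trend, 1 factor only and leaving out each array.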

Additional observations from a re-analysis of the deposited data

Results flagged for a closer look

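The diet ratios of 6 class II genes ran in opposite directions in the strains. Each strain is 1 pair of arrays, so this difference was not tested. The share of all genes with opposite directions, counting both ways, was not taken. Of the 7 class II genes above the floor on every array, 5 were higher on high-fat in A/J and lower in C57BL/6J. Of all 7227 such genes, 24.6% were. The difference of the log2 diet ratios, A/J minus C57BL/6J, was 0.80 for H2-Ab1, 0.57 for H2-Eb1, 0.55 for Cd74, 0.47 for H2-DMa and 0.45 for H2-Aa, each higher on high-fat in A/J and lower in C57BL/6J. For Ciita it was -0.16, from ratios of -0.09 in A/J and 0.08 in C57BL/6J at signals near the floor. Over all genes the middle of this difference was 0.02, with a lower decile of -0.55 and an upper decile of 0.55. Under quantile normalization 1 class II gene, Ciita, was higher on high-fat in C57BL/6J, and with no scaling 0 were.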

How the results depend on the processing

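For strain and for diet, 0 class II genes were called by limma under any of the gene-level alternatives, among them quantile normalization, no scaling, floors of 50 and 200 and the leave-one-out fits, whose counts ranged from 0 to 0. The fits with a floor of 200, with no filter on mean signal or without an array made 0 calls over all genes for strain. For diet the same held for a floor of 200, no filter, diet alone in the fit and every omission of an array except C57BL/6J high-fat. A count of 0 class II genes in those fits says nothing about stability. Over all genes the strain calls numbered 604 in the reported fit and between 0 and 854 in the alternatives, and the diet calls 49 and between 0 and 123. With each probe set on its own the strain count was 1, H2-Aa 1452431_s_at. With the mean of all probe sets H2-Aa differed by 0.81 (limma adjusted p = 0.112), and the number of genes at least 2-fold apart on high-fat became 1. It was 2 per probe set, and 1 per probe set on low-fat, against 0 in each reported count. Without probe sets ending in s, x or a, 4 class II genes were tested. In fits added after seeing the data, 1452431_s_at kept a positive difference, from 1.27 without A/J high-fat to 1.88 without A/J low-fat, where 0 probe sets in all were called, and had an adjusted p of 0.064 with strain alone, 0.0196 with quantile normalization and 0.00265 unscaled. Unscaled, the shared DMb probe set was called too, at 0.89 (limma adjusted p = 0.0393).

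No scaling moved the median strain difference of all genes to 0.26, against 0.04, and the diet one to -0.10, against 0.00. Values that changed sign were small or rested on 1 array, and the cause was not tested. For strain, Ciita was 0.22 with no scaling, also per probe set, and ranged from -0.05 to 0.03 when an array was left out. H2-Aa ranged from -0.11 to 0.19, with -0.03 without A/J high-fat, and H2-Eb1 from -0.19 to 0.29. For diet the ranges were -0.38 to 0.25 for Cd74, -0.21 to 0.05 for H2-Aa, with 0.01 without C57BL/6J low-fat, -0.71 to 0.22 for H2-Ab1 and -0.31 to 0.18 for H2-DMa. No paired analysis was possible because each group has 1 array. Probe sets near the floor, such as those of Ciita, H2-Oa and H2-Ea, limit what could be seen.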
